A study of Caenorhabditis elegans with 3 samples.

Results

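The troponin genes of Caenorhabditis elegans encode the calcium switch of muscle, and 10 of them were followed here in adult hermaphrodites: tnt-2, tnt-3, tnt-4 and mup-2 for troponin T, tni-1, unc-27, tni-3 and tni-4 for troponin I, and tnc-2 and pat-10 for troponin C. They were taken by name from the array annotation, using probes assigned to a single gene. Each of the 10 genes had 1 such probe, with a value on every array, among the 15168 genes that the annotated probes cover. The tropomyosin gene lev-11 has no probe named for it in the annotation used and was not analysed here, so the set holds troponin genes alone. The samples were RNA of adult hermaphrodites labelled "w/ emb", which was read as carrying embryos, hybridised against a reference of mixed wild-type RNA on two-colour arrays. The genotype of the adults is not labelled, the code TP11 and the number after "emb" were left unread, and no allele, agent, age or rearing condition is given. There were 3 preps of adult worms, 1 array each, and they form a single group.

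Troponin sits on the actin filament together with tropomyosin. Troponin C binds calcium, troponin I holds back the interaction of actin with myosin while calcium is low, and troponin T anchors the complex to tropomyosin. In this worm the pharynx and the body wall muscle use products of different troponin genes: tnc-2, tni-4 and tnt-4 are known for the pharynx, and pat-10, tni-1, unc-27, tni-3, tnt-2, tnt-3 and mup-2 for the body wall, some of them also for the small muscles of the vulva, the gut end and the contractile sheath around the gonad.

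Each value is a log2 ratio of adult RNA over reference RNA, so a value of 0 means equal amounts and −1 a level 2-fold lower in the adults. By the labels, channel 1 held the reference and channel 2 the adults, but no dyes are named, so this direction is likely, not settled, and every "higher" and "lower" rests on it. Ratios of the 19710 probes measured on all 3 arrays had Pearson correlations of 0.776 to 0.829 between preps, and their robust SD was 0.770 on prep 1, 0.483 on prep 2 and 0.368 on prep 3. Whether the preps came from separate cultures is not labelled, and the p-values speak only of the spread among these 3 samples, possibly a technical one. All 19 genes of the oocyte and germ line list were higher in the adults (median log2 ratio 1.77), while 10 of 15 neuronal genes were lower and 0 higher (median −0.75). Over all probes 15.8% were higher and 16.2% lower by the test given below. In whole-animal RNA, fewer cells of a type and less RNA per cell cannot be told apart.

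Of the 10 troponin genes, 9 had mean levels within 2-fold of the reference after centring, and tnc-2 alone lay further away. Of all probes, 12.3% had means at least 2-fold away in either direction, so this count is near the share over all probes. By limma's moderated test with Benjamini-Hochberg adjustment over all probes, 2 of the 10 genes were lower in the adults, tnc-2 and tni-3, 0 were higher and 8 did not pass the threshold of 0.05. Of all probes tested 32.0% passed, 16.2% lower and 15.8% higher, so lower calls among 10 troponin genes were about as frequent as among all probes. At an unadjusted p under 0.05 there were 5 troponin genes, beside 40.5% of all probes. The median log2 ratio of the 10 genes was −0.20, against −0.0012 over all probes, and the median size of the ratio, whatever its sign, was 0.41 against 0.31. A level at least 2-fold lower, past the threshold, was seen for 1 of the 10 genes, tnc-2, and for 6.73% of all probes. The sign was the same on all 3 arrays for 9 of the 10 genes, mup-2 being the exception, and for 61.1% of all probes. In the deposited values, without centring, it was the same for 8 of the 10.

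**Figure D1:**
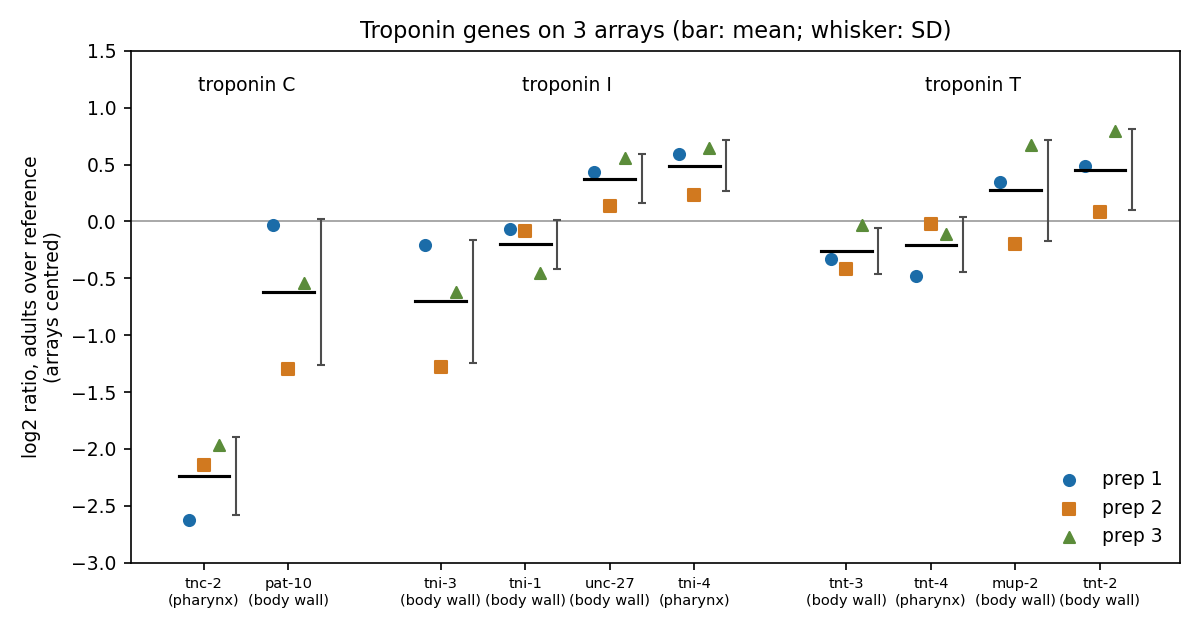
Log2 ratio of adult over reference RNA (y axis, arrays centred on their medians) for the 10 troponin genes grouped by subunit (x axis, with the muscle each is known for). Points are the 3 preps, the black bar their mean and the whisker ± 1 SD. The values of tnc-2 lie between −2.62 and −1.96, below every value of the other 9 genes, and pat-10 and tni-3 have their lowest value on prep 2.

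The troponin C genes held the lowest ratio of the set. The gene tnc-2 (ZK673.7), which encodes the calcium-binding subunit of pharyngeal muscle, had log2 ratios of −2.62, −2.14 and −1.96 on preps 1, 2 and 3. All of these lie below the lowest value of any other troponin gene on any array, −1.30. The mean was −2.24 ± 0.34 (SD, n = 3), that is 4.72-fold lower in the adults, with a 95% confidence interval of −2.65 to −1.83 (limma adjusted p = 2.0e-05). Of the 19710 probes, 171 (0.868%) had a lower mean ratio. On the single arrays the share below tnc-2 was 0.779%, 1.75% and 0.781%, so it stood near the low end on each prep.

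The second troponin C gene, pat-10 (F54C1.7), is the body wall form, and mutants that lack it arrest as paralysed embryos. Its log2 ratios were −0.03, −1.30 and −0.54 on preps 1, 2 and 3. Prep 1 was thus near the median probe and prep 2 more than 2-fold lower. The mean was −0.62 ± 0.64 (SD, n = 3), with a 95% confidence interval of −1.13 to −0.11 and a limma adjusted p of 0.062, which does not pass. The call depended on the processing: pat-10 passed as lower after scaling of the arrays (adjusted p = 0.045), after quantile normalization (0.022), with a trended and robust variance (0.022) and without prep 1 (0.011), whereas without prep 2 its mean was −0.28 (adjusted p = 0.505).

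The troponin I genes encode the inhibitory subunit, and their means ran from −0.70 to 0.49. The gene tni-3 (T20B3.2), one of the body wall forms, had log2 ratios of −0.21, −1.28 and −0.62 on preps 1, 2 and 3, negative on each but largest in size on prep 2. Its mean was −0.70 ± 0.54 (SD, n = 3), or 1.63-fold lower in the adults (limma adjusted p = 0.028). Without prep 2 the mean was −0.41 and the call was lost (adjusted p = 0.284), so it rests on that prep.

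The pharyngeal troponin I gene, tni-4 (W03F8.1), stood at the other end of the set. It had log2 ratios of 0.59, 0.23 and 0.64 on preps 1, 2 and 3, positive on each. The mean was 0.49 ± 0.23 (SD, n = 3), with a 95% confidence interval of 0.10 to 0.88, and it did not pass (limma adjusted p = 0.056). It passed as higher in 5 alternatives, with adjusted p-values from 0.030 after quantile normalization to 0.046 after scaling, and missed the threshold with any of the preps left out (0.079 to 0.321). The value is therefore near the threshold, on either side of it according to the processing.

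The other troponin I genes belong to the body wall. The gene unc-27 (ZK721.2), whose mutants move in an uncoordinated way, had log2 ratios of 0.43, 0.14 and 0.55, with a mean of 0.37 ± 0.21 (SD, n = 3; limma adjusted p = 0.138). The gene tni-1 (F42E11.4) had −0.07, −0.08 and −0.45, with a mean of −0.20 ± 0.22 (SD, n = 3; limma adjusted p = 0.442). The values of unc-27 lay above those of tni-1 on every prep, and neither gene passed. The 95% confidence intervals were −0.01 to 0.76 for unc-27 and −0.59 to 0.19 for tni-1. After centring these correspond to 0.990 to 1.70 times the reference for unc-27 and 0.664 to 1.14 times for tni-1.

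None of the 4 troponin T genes, which encode the subunit that ties the complex to tropomyosin, passed the test, and by unadjusted p 1 of them, tnt-2, was under 0.05. The body wall gene tnt-2 (F53A9.10) had log2 ratios of 0.49, 0.08 and 0.79 on preps 1, 2 and 3, with a mean of 0.45 ± 0.36 (SD, n = 3; limma adjusted p = 0.095). For mup-2 (T22E5.5), named for its role in muscle positioning in the embryo, the values were 0.34, −0.20 and 0.68, with a mean of 0.27 ± 0.44 (SD, n = 3; limma adjusted p = 0.350). Both genes were highest on prep 3 and lowest on prep 2, and mup-2 changed sign between them.

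The remaining troponin T genes had negative values on every array after centring, and without centring tnt-4 was 0.05 on prep 2. The body wall gene tnt-3 (C14F5.3) had log2 ratios of −0.33, −0.42 and −0.04 and a mean of −0.26 ± 0.20 (SD, n = 3; limma adjusted p = 0.303). The pharyngeal gene tnt-4 (T08B1.2) had −0.48, −0.02 and −0.11 and a mean of −0.20 ± 0.24 (SD, n = 3; limma adjusted p = 0.440). Their 95% confidence intervals, −0.65 to 0.12 for tnt-3 and −0.60 to 0.19 for tnt-4, exclude a 2-fold change in either direction. The body wall troponin genes of one subunit resemble each other in sequence, and whether a probe also bound the RNA of a related gene was not tested.

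Ordered by their means, the genes ran tnc-2, tni-3, pat-10, tnt-3, tnt-4, tni-1, mup-2, unc-27, tnt-2 and tni-4. The gap between tnc-2 and tni-3 was 1.54 on the log2 scale, with 2.41, 0.86 and 1.34 on preps 1, 2 and 3, and the values of this pair did not overlap. Every other neighbouring pair overlapped in its values, with gaps of 0.0026 to 0.47, each smaller than the SD of the pair's difference over the preps. No order beyond the place of tnc-2 can thus be read between neighbours.

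**Figure D2:**
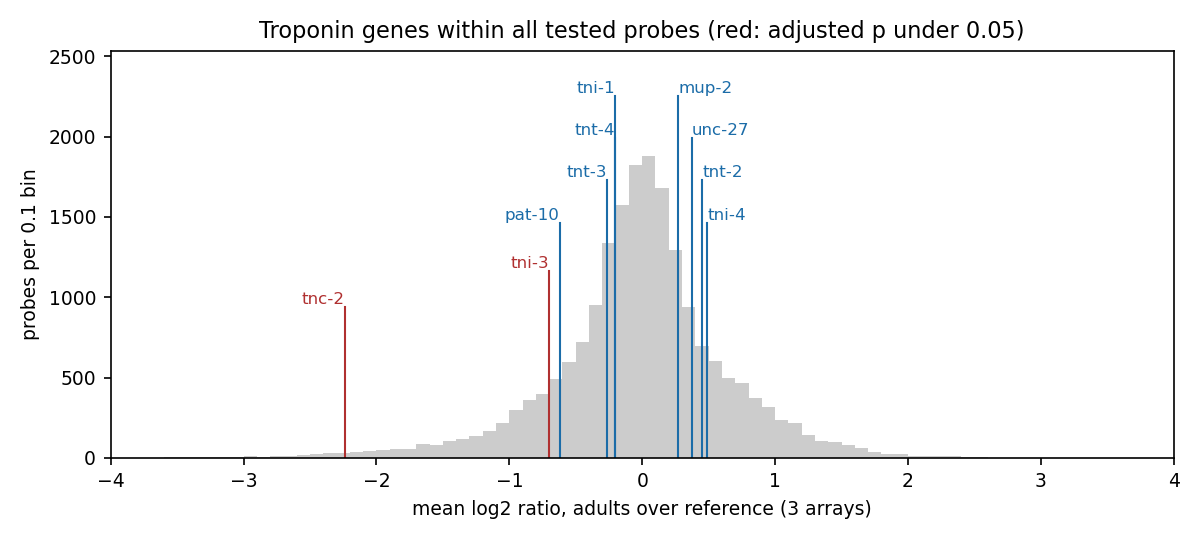
Number of probes (y axis) in bins of 0.1 of the mean log2 ratio of adult over reference RNA (x axis) for the 19710 probes tested, with the 10 troponin genes as labelled lines whose height has no meaning. Red marks the genes with an adjusted p under 0.05. The gene tnc-2 lies in the low tail at −2.24, and the other 9 genes lie between −0.70 and 0.49.

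The genes tni-3 and pat-10 had nearly the same values on each array. They differed by 0.18, −0.02 and 0.08 (pat-10 minus tni-3) on preps 1, 2 and 3, while each moved by more than 1 between preps 1 and 2. With 3 arrays such likeness is a description only. Prep 2 gave the lowest of the 3 values for 7 of the 10 troponin genes, prep 1 for 2 and prep 3 for 1, while over all probes the shares were 38.2%, 36.9% and 24.9%. The median of the 10 genes was −0.05, −0.14 and −0.07 on preps 1, 2 and 3.

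Pharyngeal and body wall genes of one subunit were set against each other within each array. For troponin C, tnc-2 minus pat-10 was −2.59, −0.84 and −1.42 on preps 1, 2 and 3, a mean of −1.62 ± 0.89 (SD, n = 3), so the pharyngeal gene was the lower one on all 3. For troponin I the difference ran the other way: tni-4 minus the mean of tni-1, unc-27 and tni-3 was 0.54, 0.64 and 0.82, a mean of 0.67 ± 0.14 (SD, n = 3). For troponin T, tnt-4 minus the mean of tnt-2, tnt-3 and mup-2 was −0.64, 0.16 and −0.59, a mean of −0.36 ± 0.45 (SD, n = 3), smaller than its spread. The pharyngeal genes therefore did not share a direction against the body wall genes. The body wall genes of a subunit also differed among themselves. The mean of unc-27 (0.37) lay near that of tni-4 (0.49), while tni-1 and tni-3 had −0.20 and −0.70. Likewise tnt-3 (−0.26) lay near tnt-4 (−0.20), while mup-2 and tnt-2 had 0.27 and 0.45. Without prep 1 or prep 2 the troponin T difference was −0.22 or −0.62. These differences are given as values without a p, and an exact two-sided test over 3 arrays could not go below 0.25.

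**Figure D3:**
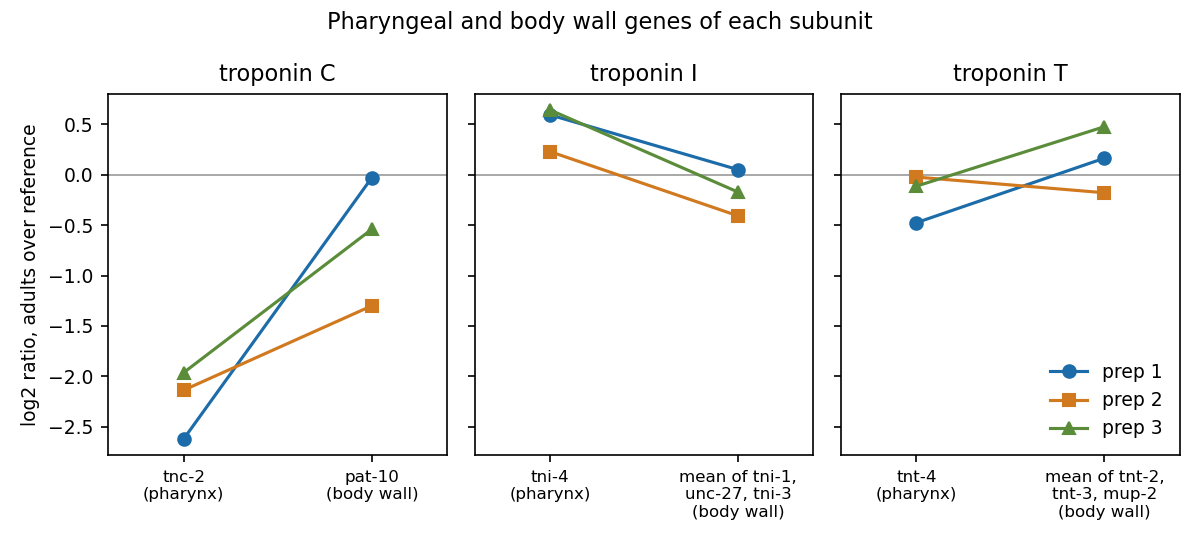
Log2 ratio of adult over reference RNA (y axis) of the pharyngeal gene (left) and of the body wall gene or the mean of the body wall genes (right) of each troponin subunit, with a line for each of the 3 preps. The lines rise for troponin C, fall for troponin I and cross for troponin T.

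The other genes of the pharyngeal list all had means above that of tnc-2. Among 17 of them 3 were lower and 0 higher, the other 14 did not pass, and the median was −0.13. Over all probes 16.2% were lower and 15.8% higher. The list also holds gland and neuron genes, so its median is not one of muscle alone. The lower ones were of different kinds. They were eat-4 (−0.78 ± 0.18), a glutamate transporter gene of neurons, phat-6 (−0.55 ± 0.26), known for the pharyngeal glands, and the pharyngeal myosin gene myo-1, at −0.76 ± 0.65 (SD, n = 3), with values of −1.39, −0.09 and −0.81, while myo-2 had −0.13 ± 0.28 and did not pass. The pharyngeal factors pha-4 (−0.03 ± 0.41) and ceh-22 (−0.07 ± 0.14) did not pass either. Without prep 1 there was 1 lower gene and 1 higher gene, and after quantile normalization 5 and 1. The part of pharyngeal tissue content in the value of tnc-2 was not tested.

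The genes of the actin filament list, not all of them known to work beside troponin, were called about as often as all probes in each direction. Over all probes 15.8% were higher and 16.2% lower. The list had 19 measured genes, with 3 higher, 3 lower and 13 not past the threshold, and a median of 0.27. The higher ones were cas-2 (0.88 ± 0.18, SD, n = 3), a cyclase-associated protein gene, the calponin-like gene cpn-1 (0.76 ± 0.40) and the actin gene act-2 (0.73 ± 0.27). The lower ones were the adducin gene add-1 (−0.68 ± 0.28), the tropomodulin gene tmd-2 (−0.57 ± 0.42) and unc-87 (−0.52 ± 0.13), a calponin-repeat protein that binds actin filaments. The actin genes are near-identical in sequence, so a probe of one can bind the others. Subtracting a running median over neighbouring probe IDs gave 5 higher and 1 lower.

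Among 14 thick filament genes the median was −0.13, with 3 lower, 0 higher and 11 not past the threshold. The shares over all probes were 16.2% lower and 15.8% higher. The lower ones were unc-98 (−1.01 ± 0.16), which encodes a protein of the muscle M-line, mlc-3 (−0.83 ± 0.65) and myo-1. The body wall myosin genes unc-54 (−0.07 ± 0.12) and myo-3 (0.06 ± 0.62) did not pass. Another gene, the myosin chaperone gene unc-45 (0.62 ± 0.58), was the highest of this list and also did not pass, and in 5 alternatives 1 gene of the list was called higher. Of 15 body wall identity genes, 5 were lower and 1, hnd-1, was higher (median −0.21); without prep 2 the lower count was 2, and without prep 1 the higher count was 0. The 3 lowest of them were lev-1 (−0.92 ± 0.53), stn-1 (−0.84 ± 0.36) and unc-49 (−0.68 ± 0.42). The genes lev-1 and unc-49 encode receptor subunits and stn-1 a syntrophin. Some receptor genes of this list are also known in neurons, whose part was not tested. The muscle factor hlh-1 had 0.08 ± 0.28.

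Genes of calcium handling, whose products act on calcium levels in muscle or other cells, were read next. The list is labelled calcium release and entry in the figure, but it also holds storage genes. It holds the export genes mca-1, ncx-1 and ncx-2 as well, which were lower. Of its 15 genes, 9 were lower and 0 higher, with 6 not past the threshold. Their median was −0.56, and 16.2% of all probes were lower. The calsequestrin gene csq-1, whose product stores calcium in the sarcoplasmic reticulum, had −1.16 ± 0.26 (SD, n = 3), and the calcium channel subunit genes unc-36 (−0.97 ± 0.21) and unc-2 (−0.86 ± 0.47) were lower too. The pump gene sca-1 (−0.19 ± 0.70) and the ryanodine receptor gene unc-68 (−0.31 ± 0.35) did not pass. Neither did egl-19 (−0.42 ± 0.40), a calcium channel gene known for muscle. Several of these genes also act in neurons, whose list was lower in 10 of 15 genes, and the part of neurons in these values was not tested. Without prep 2 or prep 3 the lower count was 5.

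Troponin C belongs to the EF-hand family of calcium-binding proteins, and other calcium sensor genes, with partners such as kinases, were read beside it. The list had 15 measured genes and a median of −0.51, with 8 lower, 0 higher and 7 not past the threshold. Over all probes 16.2% were lower and 15.8% higher. Several of these sensor genes also act in neurons, and the part of neurons in their values was not tested. The calmodulin-like genes cal-2 (−1.95 ± 0.50, SD, n = 3) and cal-1 (−1.29 ± 0.45) and the neuronal calcium sensor gene ncs-2 (−1.23 ± 0.16) were lowest, all above the mean of tnc-2. The calmodulin gene cmd-1 had 0.42 ± 0.38 and did not pass. The lower count was 4 without prep 2 and 5 without prep 3.

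**Figure D4:**
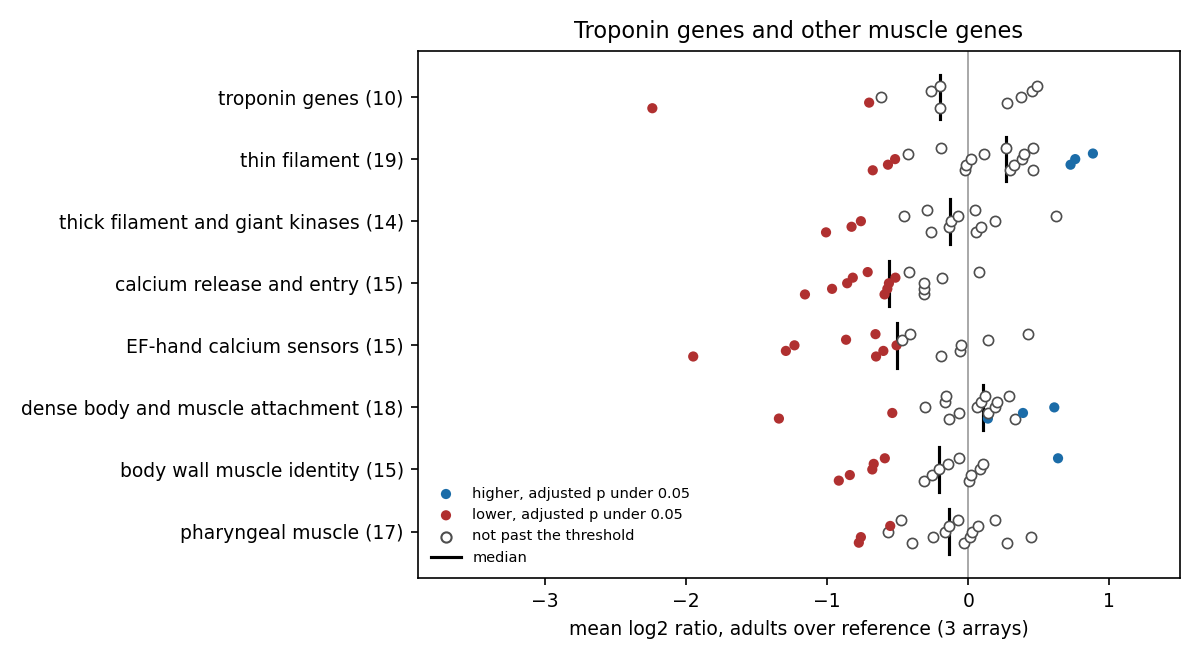
Mean log2 ratio of adult over reference RNA over 3 arrays (x axis) for the troponin genes and 7 lists of other muscle and calcium sensor genes (rows, number of genes measured in brackets). Filled points passed an adjusted p of 0.05 with at least 1 probe (red lower, blue higher), open points did not, and the black bar is the median of each row. The calcium lists have medians of −0.56 and −0.51, and the troponin genes one of −0.20. The row of pharyngeal muscle also holds gland and neuron genes.

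The muscle attachment and gonadal sheath lists were read against the same shares over all probes, 15.8% higher and 16.2% lower. Of 18 attachment genes, 3 were higher and 2 lower (median 0.10), close to those shares, the lowest being lim-9 (−1.34 ± 0.30) and the highest unc-52, the perlecan gene (0.61 ± 0.50). The other higher genes, let-805 (0.14 ± 0.24) and pat-12 (0.39 ± 0.28), had 2 probes each, of which 1 passed, and with 1 row per gene the higher count was 1. With a prep left out these counts moved: 1 gene was higher without prep 1 or prep 2, and 1 was lower with any of the preps left out. Of 18 genes of the sheath and spermatheca list, 4 were higher and 6 lower (median −0.07). At the low end was ceh-18, a factor needed for sheath cell function, at −1.44 ± 0.53. Next to it stood lfe-2 (−0.92 ± 0.10) and spv-1 (−0.90 ± 0.11), both lower. Among the higher ones were the nidogen gene nid-1 (1.16 ± 0.31) and the myosin phosphatase gene mel-11 (0.74 ± 0.33). The innexin gene inx-14 (0.79 ± 0.17) was higher too, but it is known for germ cells. The sheath innexin genes inx-8 (0.30 ± 0.31) and inx-9 (0.17 ± 0.47) did not pass.

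By the RefSeq gene table of the assembly WBcel235, 5 troponin genes lie on the X chromosome (tnt-2, tnt-3, mup-2, unc-27 and tni-1) and 5 on autosomes. The X-linked genes had mean log2 ratios of −0.26 to 0.45 and 0 of them passed, whereas the autosomal ones ran from −2.24 to 0.49 and included both lower calls. Over 2282 X-linked probes the median was −0.16, with 21.2% lower and 5.61% higher, against a median of 0.0045 over 13174 autosomal probes, with 17.1% lower and 17.8% higher. Of the X-linked troponin genes, mup-2, unc-27 and tnt-2 had means of 0.27, 0.37 and 0.45, above the X-linked median. The genes tnt-3 (−0.26) and tni-1 (−0.20) lay below it. By definition about as many X-linked probes lie above that median as below it, so this split is no result about the troponin genes.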

How the data were processed

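The authors deposited a table of log2 ratios for 20000 probes with 1 column for each of 3 two-colour arrays. Their filtering, normalization and centring are not described in the labels. The base follows from the values: read as log2, 100% of the ratios under 3 are multiples of 0.001 within 5.0e-05, against 10.7% as natural logs. The deposited medians were 0.019, 0.072 and −0.0087 on preps 1, 2 and 3. Without spot intensities no dim spot could be removed, and the number of arrays limits the precision.

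Of the probes, 15655 had 1 gene in the platform annotation, and symbols were updated by gene ID through RefSeq (WBcel235) for 15569 of them. Each array was centred on its median over the 19710 probes present on all arrays. An intercept was fitted with limma 3.58.1 in R 4.3.3 (lmFit, eBayes) and tested against 0, two-sided, with Benjamini-Hochberg adjustment over all 19710 probes and a threshold of 0.05. Residual degrees of freedom were 2, prior 8.96, and the median standard error 0.182. A gene with several probes is their mean with the largest adjusted p, and counts as called if 1 probe passes. On simulated data for this comparison with 19710 probes, 92% of changes of 1 and 100% of changes of 2 on the log2 scale were recovered. There were 8 false calls. The simulated noise was normal, with the same spread on every array, and changes were placed on far fewer probes than were called in the data. The real arrays differed in spread, and the adjustment depends on the share of changed probes, so these rates may not hold for them.

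The troponin genes and the other lists (11 in all) were chosen with earlier results of these data known. Named are all troponin genes and, from each list, genes among its 3 lowest and 3 highest. The genes myo-2, pha-4, ceh-22, phat-6, unc-54, myo-3, let-805, mel-11, inx-8, inx-9 and egl-19 were added after their values were seen. Of the 17 intestinal genes 3 were higher and 2 lower, beside 15.8% higher and 16.2% lower over all probes. Alternatives left out the centring, scaled or quantile-normalized the arrays, took probes on at least 2 arrays or 1 row per gene, used a trended and robust variance, removed a running median of 201 probes along the probe IDs, or left out each prep.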

Additional observations from a re-analysis of the deposited data

How the results depend on the processing

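The 10 troponin genes kept the sign of their mean in every alternative run. The gene tnc-2 stayed past the threshold in all 10 alternatives, with log2 ratios from −2.38 without prep 3 to −2.05 without prep 1. No troponin gene was higher as reported, and 1 was (tni-4) in 5 alternatives: log2 0.52 (adjusted p = 0.041 in limma) without centring, 0.54 (0.046) after scaling, 0.49 (0.030) after quantile normalization, 0.49 (0.045) with a trended and robust variance, and 0.53 (0.035) with the running median removed. The gene pat-10 passed as lower at −0.76 (0.045) after scaling, −0.67 (0.022) after quantile normalization and −0.62 (0.022) with a trended and robust variance. With a prep left out in turn, it ran from −0.92 (0.011, past the threshold, without prep 1) to −0.28 (0.505, without prep 2), and tni-3 from −0.95 without prep 1 to −0.41 without prep 2, where its call was lost (0.284). The number of lower troponin genes then ran from 1 without prep 2 to 3 without prep 1. The cause of these changes was not tested. No alternative changed the side of the threshold for tnt-2, tnt-3, tnt-4, mup-2, tni-1 or unc-27, but their means moved: with a prep left out, mup-2 ran from 0.07 to 0.51, tnt-4 from −0.29 to −0.07, tni-1 from −0.27 to −0.08 and tnt-2 from 0.28 to 0.64, and tnt-3 was −0.13 with the running median removed, against −0.26. The troponin C and troponin I differences between pharyngeal and body wall genes moved by less than 1.5 times, and the troponin T one ran from −0.62 to −0.22 with a prep left out. Of the counts of the other lists, by direction and alternative, 31 moved by over 1.5 times and 189 did not. Beside those in the text, 1 attachment gene was higher with probes on at least 2 arrays or 1 row per gene, 0 were higher and 1 lower with the running median removed, 1 pharyngeal gene was higher after scaling or with the running median removed, and 4 intestinal genes, against 2, were lower after quantile normalization, with a trended and robust variance and without prep 1. No paired analysis was possible because the samples form a single group. With 3 arrays and no spot intensities, it is unknown which probes were near background.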
